A study of Mus musculus with 4 samples.

Results

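P-selectin (*Selp*), E-selectin (*Sele*), *Vcam1* and *Icam1* are the endothelial genes that let circulating leukocytes roll on and adhere to the vessel wall. They were chosen by name for this role, as 4 of the 46517 gene rows of the count tables, and all 4 were found through their Ensembl identifiers. The cells came from the ear skin of adult wild-type C57Bl/6 females, 12 to 26 weeks old per the labels (the study's methods give another age range), and were sorted as CD31+/CD45-/Lyve1- to enrich blood vascular endothelial cells (BECs). Libraries were made by Smart-seq2, which reads whole transcripts of the cell sorted into a well, and hold no molecular identifiers. There was a single group, untreated, in 2 replicates of 2 plates (A and B) with 384 wells each. The labels describe pools of ears from 6 mice, without saying whether each replicate is a pool of its own, so the spread between replicates is at most that between 2 pools. Per plate (A, then B), gene counts summed to 74739095 and 63091443 in replicate 1 and to 31864976 and 35546726 in replicate 2.

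Leukocytes leave the blood mainly through postcapillary venules. P-selectin is stored in Weibel-Palade bodies, the secretory granules of endothelial cells, and reaches the surface within minutes of stimulation, whereas E-selectin is made anew after cytokines activate NF-kB, and both bind glycans on leukocytes and slow them to a roll. Icam1 and Vcam1 are immunoglobulin-type receptors that hold the slowed leukocyte through its integrins, LFA-1 and Mac-1 for Icam1 and VLA-4 for Vcam1. In resting skin, unlike in most tissues, constitutive selectin expression on venules has been described.

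*Sele* and *Selp* lie on the same chromosome. In mm10, *Sele* (ENSMUSG00000026582) lies at chr1:164048234-164057677 and *Selp* (ENSMUSG00000026580) at chr1:164115264-164150026, both on the plus strand and 57.6 kb apart. *Icam1* (ENSMUSG00000037405) lies at chr9:21015985-21028817 on the plus strand and *Vcam1* (ENSMUSG00000027962) at chr3:116109949-116129688 on the minus strand. The union of exons is 2.91 kb for *Sele*, 4.41 kb for *Selp*, 4.36 kb for *Icam1* and 8.87 kb for *Vcam1*. *Sele* and *Selp* were often high in the same wells, in part together with *Icam1*, and the 3 promoters, from 250 bases before to 50 after the start site, are shown with the motifs searched in capitals (RefSeq, GRCm38.p6, 5′ to 3′ on the plus strand, chr1:164047984-164048283 for *Sele*, chr1:164115014-164115313 for *Selp* and chr9:21015690-21015989 for *Icam1*). For *Icam1* the RefSeq start site used lies before the gene start given above.
Sele promoter: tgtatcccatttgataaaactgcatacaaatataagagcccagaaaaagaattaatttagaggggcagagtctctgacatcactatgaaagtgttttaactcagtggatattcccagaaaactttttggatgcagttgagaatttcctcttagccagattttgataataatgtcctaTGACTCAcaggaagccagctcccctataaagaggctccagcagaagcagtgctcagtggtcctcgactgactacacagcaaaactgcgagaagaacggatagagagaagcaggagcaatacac
Selp promoter: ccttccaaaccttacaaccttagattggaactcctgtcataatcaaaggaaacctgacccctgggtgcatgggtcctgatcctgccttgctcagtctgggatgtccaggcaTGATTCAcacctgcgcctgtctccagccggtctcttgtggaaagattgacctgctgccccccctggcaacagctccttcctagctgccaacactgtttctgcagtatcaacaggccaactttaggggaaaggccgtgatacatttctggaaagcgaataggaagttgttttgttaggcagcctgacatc
Icam1 promoter: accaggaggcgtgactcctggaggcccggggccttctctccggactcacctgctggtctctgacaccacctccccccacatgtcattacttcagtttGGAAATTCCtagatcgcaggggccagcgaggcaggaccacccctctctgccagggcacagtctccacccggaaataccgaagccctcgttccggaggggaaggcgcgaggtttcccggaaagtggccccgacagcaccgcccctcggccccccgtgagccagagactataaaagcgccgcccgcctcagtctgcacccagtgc

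The motifs were GGATTTCC, GGAATTTCC and GGGNNTTCC, forms of the NF-kB motif, and TGANTCA, the AP-1 motif, each on both strands. TGACTCA stood 73 to 67 bases before the start site of *Sele* and TGATTCA 139 to 133 bases before that of *Selp*, and 7.81% of the 32851 promoters of the table held TGANTCA. The reverse complement of GGAATTTCC, which 0.317% of the promoters held, stood 153 to 145 bases before the start site of *Icam1*. The forms GGATTTCC (1.16% of promoters) and GGGNNTTCC (5.82%) had no match in the 3 windows. Other forms of the NF-kB motif were not searched, so a window without a match is not shown to lack such a motif. A match is a run of letters and not a shown binding site.

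Of the 1536 wells, 701 were taken as BECs (338 and 363 in replicates 1 and 2), because they had reads of 2 or more of the endothelial genes *Kdr*, *Cdh5* and *Pecam1* and stayed below 100 CPM (gene counts scaled to a total of 1e6 per well) of the lymphatic genes *Lyve1* and *Prox1*, the leukocyte gene *Ptprc* and the mural genes *Pdgfrb* and *Kcnj8*. Median counts per BEC well were 142614 and 92974. Clusters named from vessel markers, without the 4 receptor genes, gave 209 vein-like (101 and 108), 205 artery-like (74 and 131) and 151 capillary-like wells (120 and 31), and 136 wells stayed unnamed. Of the markers, 8 of 12 were higher in the vein-like, 15 of 15 in the artery-like and 12 of 13 in the capillary-like cluster than in other wells. The separation was weaker in replicate 2, where the artery markers summed to 4218, 3463 and 3435 CPM in artery-like, capillary-like and vein-like wells, against 6119, 4458 and 2245 CPM in replicate 1. Vein markers summed to 4273 and 3167 CPM in vein-like wells and to between 881 and 1636 CPM in the other 2 classes. Depth differed too, with median counts of 188105 and 179911 in vein-like wells, 139911 and 76076 in artery-like wells and 135764 and 88519 in capillary-like wells. Shares with every well thinned to 20000 reads are therefore given as well.

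*Vcam1* was the least abundant of the 4 genes. Over all BEC wells the mean level was 306 and 389 CPM for *Icam1*, 208 and 313 CPM for *Selp*, 171 and 248 CPM for *Sele* and 9.23 and 8.95 CPM for *Vcam1* in replicates 1 and 2. From summed counts, the means over replicates were 489, 401 and 373 CPM for *Icam1*, *Selp* and *Sele*, so levels depend on the scale used. Per kb of exon, the only scale on which genes can be compared, the mean level over replicates was 79.7 ± 13.4 (SD, n = 2) CPM per kb for *Icam1*, 71.9 ± 18.9 for *Sele*, 59.0 ± 16.9 for *Selp* and 1.02 ± 0.022 for *Vcam1*. *Icam1* lay above *Sele* and *Sele* above *Selp* in both replicates, but neighbours in this order differed by less than the SD of either, and *Vcam1* lay far below all of them. The small SD of *Vcam1* does not show a stable level. A single well held 49.5% and 75.3% of its reads in replicates 1 and 2, and without that well the means were 5.93 and 2.63 CPM. The plates of replicate 2 differed by more than the replicates did. In replicate 2, the mean level on plates A and B was 486 and 151 CPM for *Selp*, 413 and 93.3 CPM for *Sele*, and 580 and 209 CPM for *Icam1*, whereas in replicate 1 plate B was the higher, with 257 against 151 CPM, 231 against 99.9 CPM and 344 against 261 CPM. For *Vcam1*, plates A and B had 17.2 and 1.22 CPM in replicate 2 and 9.90 and 8.65 CPM in replicate 1.

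These means came from few wells. *Selp* reached 100 CPM in 41 of 338 wells of replicate 1 (12.1%, exact 95% binomial interval 8.85 to 16.1%) and in 53 of 363 of replicate 2 (14.6%, 11.1 to 18.7%), and those wells held 96.6% and 97.2% of its summed level. For *Sele* the wells were 36 (10.7%, 7.57 to 14.4%) and 52 (14.3%, 10.9 to 18.4%), and for *Icam1* 90 (26.6%, 22 to 31.7%) and 74 (20.4%, 16.4 to 24.9%). *Vcam1* reached 100 CPM in 5 wells of replicate 1 and 3 wells of replicate 2. The median BEC well held 7.12 and 0 CPM of *Selp*, 7.14 and 0 CPM of *Sele*, 16.9 and 0 CPM of *Icam1* and 0 CPM of *Vcam1* in both replicates. Most BECs therefore carried few or no reads of these genes, and a minority carried most of the level. Intervals treat the wells as independent and cover the sampling of wells only, not the spread between plates or replicates.

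A read alone separated wells poorly. At least 1 read of *Selp* was found in 60.4% and 40.2% of BEC wells, and in 62.5% and 34.2% of 8 and 38 mural wells (at least 300 CPM of *Pdgfrb* or *Kcnj8* and under 100 CPM of *Pecam1*), which should lack the gene and had median counts of 197462 and 170239. *Sele* gave 59.8% and 36.6% against 75.0% and 26.3%, and *Vcam1* 13.3% and 9.64% against 12.5% and 5.26%. At 100 CPM, 1 of 8 and 0 of 38 mural wells passed for each selectin, but none of these wells was so shallow that a single read would pass. *Icam1* reached 100 CPM in 1 of 8 and 4 of 38 mural wells. Shares of wells with a read of the selectins or *Vcam1* were therefore near the background, and 100 CPM was used instead. Among BEC wells of replicate 2, 27 had so few counts that a single read made 100 CPM, and 7 of the 53 wells with at least 100 CPM of *Selp*, 12 of 52 of *Sele* and 10 of 74 of *Icam1* rested on 1 read. None of these was vein-like, and replicate 1 had 0 such wells. With every well thinned to 20000 reads (1 and 69 BEC wells were shallower and left out), 25.5% and 26.9% of BEC wells had a read of *Selp*, 21.4% and 19.4% of *Sele*, 44.2% and 30.3% of *Icam1* and 3.86% and 3.4% of *Vcam1*. Mural wells were not thinned, so thinned shares, here and by class below, have no background at that depth and low shares may be background.

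*Selp*, the granule-stored selectin, was highest in vein-like wells. In summed counts scaled by TMM, vein-like wells had 706 and 880 CPM in replicates 1 and 2, artery-like wells 7.87 and 186 CPM, and capillary-like wells 7.35 and 7.20 CPM. Both vein-like sums lay above the 4 others, while the artery-like sums differed between replicates by more than those of the other classes did. At least 100 CPM was reached by 38 of 101 and 27 of 108 vein-like wells (37.6%, 28.2 to 47.8%, and 25.0%, 17.2 to 34.3%), by 1 of 74 and 14 of 131 artery-like wells and by 0 of 120 and 2 of 31 capillary-like wells. Thus 92.7% of the wells at this level in replicate 1 were vein-like (exact 95% interval 80.1 to 98.5%) and 50.9% in replicate 2 (36.8 to 64.9%), where vein-like wells were 29.9% and 29.8% of all BEC wells. Thinned to 20000 reads, a read was found in 50.5% and 41.7% of vein-like, 17.6% and 21.6% of artery-like and 11.7% and 9.09% of capillary-like wells.

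The artery-like sum of *Selp* in replicate 2 rested on few wells. The topmost of 131 wells held 71.3% of the 2463 reads and the 3 wells with most reads 90%. That topmost well, from plate A with 125615 counts, had 13971 CPM of *Selp*, 9561 CPM of *Icam1* and 2428 CPM of *Sele*. It had 3001 CPM of *Vwf*, 15.9 CPM of the venule gene *Ackr1* and 0 CPM of the artery genes *Gja4* and *Hey1*. On the artery to vein order described below, 8 of the 14 artery-like wells with at least 100 CPM of *Selp* lay in the 2 bins nearest the vein end and 6 in the other 3. Of all 131 artery-like wells, 19 lay in the bin next to the vein end and 9 in the bin at the vein end. Without the highest well of each sum the vein-like difference was 5.87 on the log2 scale in place of 5.20.

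*Sele*, the cytokine-induced selectin, followed the same order. Vein-like sums were 564 and 977 CPM, artery-like sums 8.78 and 43.8 CPM and capillary-like sums 8.41 and 5.83 CPM. The vein-like sums again lay above all others. A single well held 305 of the 581 reads of the artery-like sum of replicate 2, and without it the mean level of artery-like wells there was 35.3 CPM in place of 53.6 CPM. At least 100 CPM was reached by 34 and 28 vein-like wells (33.7%, 24.6 to 43.8%, and 25.9%, 18 to 35.2%), 1 and 11 artery-like wells and 0 and 3 capillary-like wells. In replicate 2, 4 of the 11 and all 3 of these wells rested on 1 read. Furthermore, 14 of 15 and 18 of 20 wells with at least 1000 CPM were vein-like. Thinned to 20000 reads, a read was found in 43.6% and 32% of vein-like, 8.11% and 13.5% of artery-like and 14.2% and 4.55% of capillary-like wells. Of the 4 genes, *Sele* had the most similar difference in both replicates.

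*Icam1*, the integrin receptor, had its highest sums in vein-like wells but was present in all classes. Vein-like sums were 794 and 884 CPM, artery-like sums 99.1 and 417 CPM and capillary-like sums 114 and 19.2 CPM. The vein-like sums lay above all others, and artery-like and capillary-like sums overlapped. By plate, the mean level in vein-like wells lay above that in artery-like wells on 3 of 4 plates, and on plate B of replicate 2 the order was the opposite, with 252 against 291 CPM. At least 100 CPM was reached by 58 of 101 and 33 of 108 vein-like wells (57.4%, 47.2 to 67.2%, and 30.6%, 22.1 to 40.2%), 14 of 74 and 22 of 131 artery-like wells (18.9% and 16.8%) and 12 of 120 and 7 of 31 capillary-like wells (10.0% and 22.6%). Vein-like wells made up 64.4% and 44.6% of all wells at this level. Thinned to 20000 reads, a read was found in 70.3% and 39.8% of vein-like (exact 95% intervals 60.4 to 79 and 30.3 to 49.9%), 35.1% and 31.5% of artery-like (24.4 to 47.1 and 23 to 41%) and 30% and 22.7% of capillary-like wells, so in replicate 2 the intervals of the classes overlapped.

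*Vcam1*, the VLA-4 receptor, was near 0 in nearly all wells, and the class with the highest sum was not the same in both replicates. Vein-like sums were 37.7 and 0.924 CPM, artery-like sums 0.824 and 22.1 CPM and capillary-like sums 1.34 and 0.686 CPM. The highest sum of replicate 1 was vein-like and that of replicate 2 artery-like, and each came from a handful of wells, since the 3 wells with most reads held 95.6% and 94.2% of the reads. In replicate 1 the 3 wells had 1118, 775 and 479 CPM from 428, 243 and 118 reads, all were vein-like, and all had over 1000 CPM of both *Selp* (3585, 1850 and 1024 CPM) and the venule gene *Ackr1* (2101, 1898 and 1186 CPM). In replicate 2 the highest well, artery-like and on plate A, had 2298 CPM from 268 reads, with 1029 CPM of *Gja4* and no read of *Selp*, *Sele*, *Icam1* or *Ackr1*. Thinned to 20000 reads, 6 and 1 vein-like, 2 and 4 artery-like and 3 and 0 capillary-like wells had a read. The wells are too few to set *Vcam1* against a class.

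**Figure D1:**
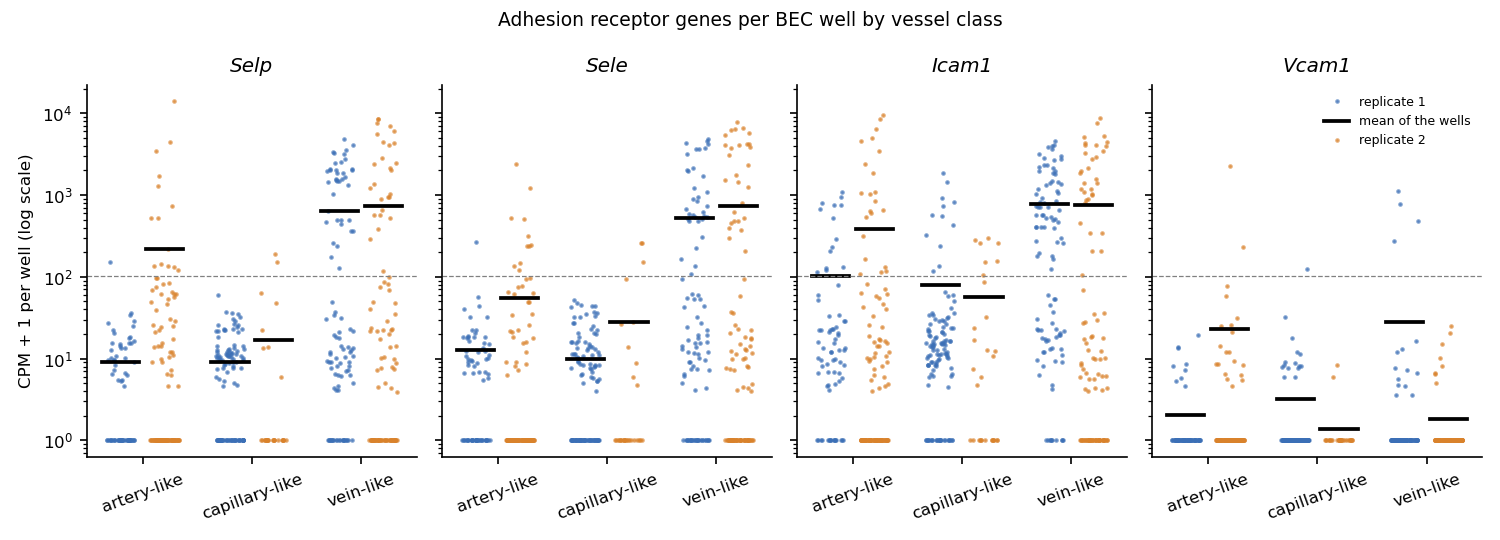
Level of each receptor gene in every artery-like, capillary-like and vein-like BEC well, as CPM + 1 on a log axis, with a point per well coloured by replicate, a black bar at the mean of the wells and a dashed line at 100 CPM. The *Selp* and *Sele* wells above the line are mostly vein-like, *Icam1* has such wells in every class, and *Vcam1* has 7 among the 3 classes.

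The comparison of vein-like wells with the mean of the artery-like and capillary-like wells asks how far the receptors mark the venous side. In edgeR's quasi-likelihood test on the 6 sums, *Sele* differed by 5.80 ± 0.58 (SE) on the log2 scale (adjusted p = 0.266) and by 5.96 and 5.87 in replicates 1 and 2 alone. Each edgeR SE is derived, as the size of the difference over the square root of the test's F statistic. *Selp* differed by 5.20 ± 0.90 (edgeR adjusted p = 0.999), with 6.45 and 4.54 in the replicates, and *Icam1* by 2.67 ± 0.77 (edgeR adjusted p = 0.999), with 2.90 and 3.29. *Vcam1* differed by 1.96 ± 2.61 (edgeR adjusted p = 0.999), with 4.62 in replicate 1 and -1.86 in replicate 2. No gene of the 15725 tested passed the threshold of 0.05 after Benjamini-Hochberg adjustment (0% called), so these differences, although large for 3 genes, are not separated from the spread between sums by the main test. The fit has 2 residual degrees of freedom, and the classes were drawn from other genes of the same wells, so its p-values describe these classes, with the spread between 2 replicates only, and not an independent grouping.

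Looser criteria set the 3 genes apart to unequal degrees. At an unadjusted edgeR p under 0.05, 646 genes passed and 464 of them were higher in vein-like wells (2.95% of those tested), including *Selp*, *Sele* and *Icam1*. Both vein-like sums lay above all 4 others for 7.78% of genes and for these same 3 receptors. limma on mean CPM per well called 0 genes, whereas DESeq2's Wald test called 192, of which 139 were higher in vein-like wells (0.979% of the 14200 with an adjusted p), among them *Sele* (adjusted p = 3.6e-11) and *Selp* (adjusted p = 3.0e-05) but not *Icam1* (adjusted p = 0.121) or *Vcam1* (adjusted p = 0.860). Over 15 other ways of processing, *Sele* stayed between 4.90 and 7.54, *Selp* between 4.75 and 7.21 and *Icam1* between 2.27 and 4.34, and edgeR or DESeq2 called *Sele* under 7, *Selp* under 5 and *Icam1* under 0 of them. Adjusted p ran from 3.6e-11 to 0.372 for *Sele*, from 3.0e-05 to 1 for *Selp* and from 0.112 to 1 for *Icam1*. *Vcam1* ranged from -0.74 to 3.86 and was called under none (adjusted p from 0.860 to 1). The median of all genes tested was 0.13. On plates A and B taken alone, *Selp* differed by 4.75 and 5.59 (edgeR adjusted p = 0.173 and 0.571), *Sele* by 5.53 and 5.83 (edgeR adjusted p = 0.0107 and 0.192), *Icam1* by 2.57 and 2.27 and *Vcam1* by 0.98 and 3.86 (edgeR, neither gene past the threshold).

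**Figure D2:**
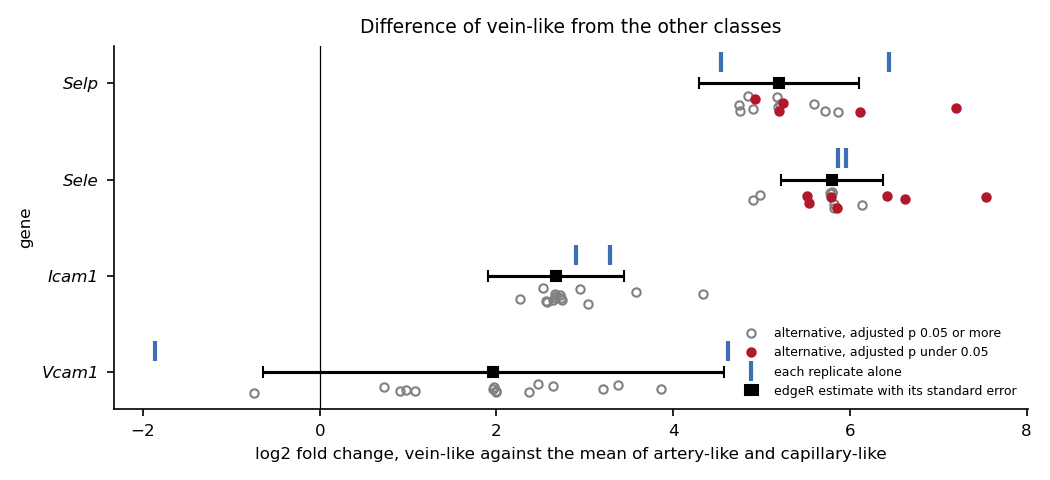
Log2 fold change of vein-like wells against the mean of artery-like and capillary-like wells for each gene, with the edgeR estimate and its derived SE (square and bar), both replicates alone (ticks) and 15 alternatives (circles, filled where the adjusted p was under 0.05). *Selp*, *Sele* and *Icam1* stay above 0 throughout, and the 2 replicates of *Vcam1* lie on opposite sides of 0.

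Against artery-like wells alone, the venous level was higher for the same 3 genes. Artery-like minus vein-like differences were -5.07 ± 0.76 for *Sele*, -3.74 ± 1.18 for *Selp* and -1.69 ± 0.97 for *Icam1* and had the same sign in both replicates. Again no gene passed in edgeR after adjustment (0% called, 463 genes at an unadjusted p under 0.05), and both artery-like sums lay below both vein-like sums for 17.6% of genes, so that order alone is common. DESeq2 called 142 genes, 93 of them lower in artery-like wells (0.7% of 13286), with *Sele* (adjusted p = 4.6e-06) and *Selp* (adjusted p = 0.0458) among them. Between artery-like and capillary-like wells, differences were 2.92 ± 1.22 for *Selp*, 1.45 ± 0.70 for *Sele* and 1.96 ± 1.09 for *Icam1* (edgeR adjusted p = 0.935 for each), but replicate 1 alone gave 0.093, 0.060 and -0.20, so these differences came from replicate 2. No gene passed in edgeR there either (0% called, 587 genes at an unadjusted p under 0.05), and DESeq2 called 233 genes, 124 of them higher in artery-like wells (0.955% of 12981) and none of the 4 receptors.

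Since clusters draw sharp lines, wells were also ordered by the mean of 12 vein markers minus that of 15 artery markers and split into 5 bins of 67 to 73 wells per replicate. The bins include unnamed wells, 13 and 25 in the bin next to the vein end and 6 and 21 at the vein end in replicates 1 and 2. The vein markers are not particular to veins, since they summed to 3139 and 5957 CPM in the mural wells set aside. *Selp* went from 6.28 and 8.93 CPM in the bin at the artery end to 890 and 1159 CPM at the vein end in replicates 1 and 2. The step was steep in replicate 1, where the bin next to the vein end had 86.0 CPM, and more gradual in replicate 2, where it had 312 CPM. *Sele* went from 8.07 and 7.40 CPM to 733 and 832 CPM, with 50.7 and 256 CPM in the bin before. *Icam1* went from 83.8 and 182 CPM to 955 and 954 CPM, with 247 and 301 CPM in the bin before, so its fold difference between the ends was smaller than those of the selectins. *Vcam1* had 1.27 and 33.3 CPM at the artery end and 42.0 and 4.90 CPM at the vein end.

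In the bin at the vein end, 46.3% and 40.3% of wells reached 100 CPM of *Selp*, 38.8% and 37.5% of *Sele*, and 58.2% and 34.7% of *Icam1*. At the artery end the shares were 0% and 2.74%, 0% and 1.37%, and 10.3% and 6.85%. Median counts of the bins at the artery and vein ends were 134781 and 154597 in replicate 1 and 122630 and 95739 in replicate 2, and the part of depth was not tested here. Across wells, Spearman's rho of level and order was 0.40 and 0.33 for *Selp*, 0.37 and 0.31 for *Sele*, 0.36 and 0.19 for *Icam1* and 0.12 and 0.0084 for *Vcam1* (338 and 363 wells, which share pool, plate and depth).

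**Figure D3:**
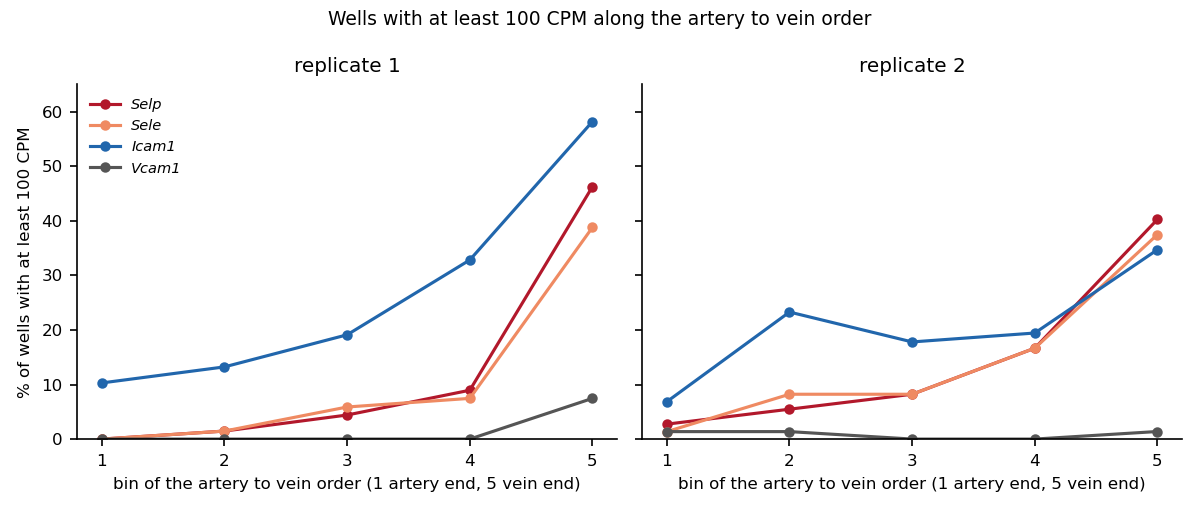
Percent of wells with at least 100 CPM of each gene in 5 bins of the artery to vein order, with a panel per replicate and a line per gene. *Selp* and *Sele* stay under 10% up to the bin next to the vein end in replicate 1 and reach 16.7% in that bin in replicate 2, and *Icam1* is present in every bin.

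Classes drawn from the marker scores, in place of clusters, gave larger vein-like differences for the selectins. Score vein-like wells (71 and 73) had mean levels of 882 and 1135 CPM of *Selp* and score artery-like wells (46 and 63) 9.34 and 11 CPM. For *Sele* the levels were 715 and 735 against 9.89 and 12.5 CPM, and for *Icam1* 985 and 897 against 179 and 152 CPM. Score capillary-like wells had 104 and 270 CPM of *Icam1*. The excess of *Selp* in the artery-like cluster of replicate 2 was thus absent from the score artery-like wells. Vein-like differences under these classes were 7.21 for *Selp* (edgeR adjusted p = 0.0132), 7.54 for *Sele* (edgeR adjusted p = 0.0236), 2.53 for *Icam1* (edgeR adjusted p = 0.180) and 3.21 for *Vcam1* (edgeR adjusted p = 0.958). The score places a well only if its highest marker score leads the next by at least 0.25. It leaves 115 and 173 wells in no class, with mean levels of 54.5 and 167 CPM of *Selp*, 47.3 and 201 CPM of *Sele* and 124 and 298 CPM of *Icam1*. In replicate 2 they held 20 of the 53 wells with at least 100 CPM of *Selp*, 19 of 52 of *Sele* and 33 of 74 of *Icam1*. The larger differences thus come with these wells left out. Of all BEC wells, 85 and 106 lay within 0.1 of the limit.

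The receptors were high in the same wells. With at least 100 CPM as the limit, *Selp* and *Sele* shared 31 wells in replicate 1 and 33 in replicate 2, against 4.37 and 7.59 if they were independent. The ratios were 7.10 (4.89 to 9.88) and 4.35 (3.03 to 5.99). Intervals of ratios, here and below, are exact 95% binomial intervals of the shared count, divided by the expected number. They take the expected number as known and the wells of a replicate as independent, so they are no test of sharing. The shared wells were 75.6% and 62.3% of the *Selp* wells and 86.1% and 63.5% of the *Sele* wells. *Selp* and *Icam1* shared 36 and 31 wells (ratio 3.30 and 2.87), and *Sele* and *Icam1* 31 and 27 wells (3.23 and 2.55). After thinning to 20000 reads and counting any read, the ratios were lower, 2.23 and 2.48 for *Selp* with *Sele*, 1.45 and 1.71 for *Selp* with *Icam1* and 1.48 and 1.68 for *Sele* with *Icam1*. *Vcam1* had 5 and 3 wells at 100 CPM, 3 and 0 of them shared with *Selp*, and its thinned ratios had intervals that reach to both sides of 1.

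The sharing was also found within the vein-like class. There, *Selp* and *Sele* shared 30 and 20 wells at 100 CPM, against 12.8 and 7 if independent (ratio 2.35 and 2.86), and Spearman's rho of their levels was 0.75 and 0.64 over 101 and 108 wells, compared with 0.53 and 0.53 over all BEC wells. For *Selp* with *Icam1* rho was 0.50 and 0.51, and for *Sele* with *Icam1* 0.53 and 0.53. Thinned to 20000 reads, the ratios in vein-like wells were 1.62 (1.20 to 2.08) and 1.67 (1.10 to 2.36) for *Selp* with *Sele*, 1.17 (0.897 to 1.46) and 1.58 (1.09 to 2.15) for *Selp* with *Icam1*, and 1.16 (0.861 to 1.495) and 1.45 (0.901 to 2.14) for *Sele* with *Icam1*. At 100 CPM, the ratios with *Icam1* in vein-like wells were 1.51 and 2.18 for *Selp* and 1.54 and 1.99 for *Sele*, all with lower limits above 1. At the smaller depth the lower limit was above 1 for *Selp* with *Icam1* in replicate 2 only, and thinned to 50000 reads also for *Sele* with *Icam1* in replicate 2 (1.46, 1.06 to 1.91). With *Vcam1*, rho lay between 0.016 and 0.25 within vein-like wells and between 0.027 and 0.083 over all BEC wells.

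All of *Selp*, *Sele* and *Icam1* reached 100 CPM in 28 vein-like wells of replicate 1 (27.7%) and 14 of replicate 2 (13%). *Icam1* alone did so in 23 and 12 wells, *Selp* alone in 3 and 3 and *Sele* alone in 2 and 5. None of the 3 reached it in 36 and 61 vein-like wells (35.6% and 56.5%). Outside the vein-like class, wells with all 3 genes numbered 0 and 2 among artery-like and 0 and 1 among capillary-like wells and 1 and 4 among unnamed wells. *Icam1* was thus often found without a selectin, and a selectin seldom without another of the 3 genes in replicate 1.

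**Figure D4:**
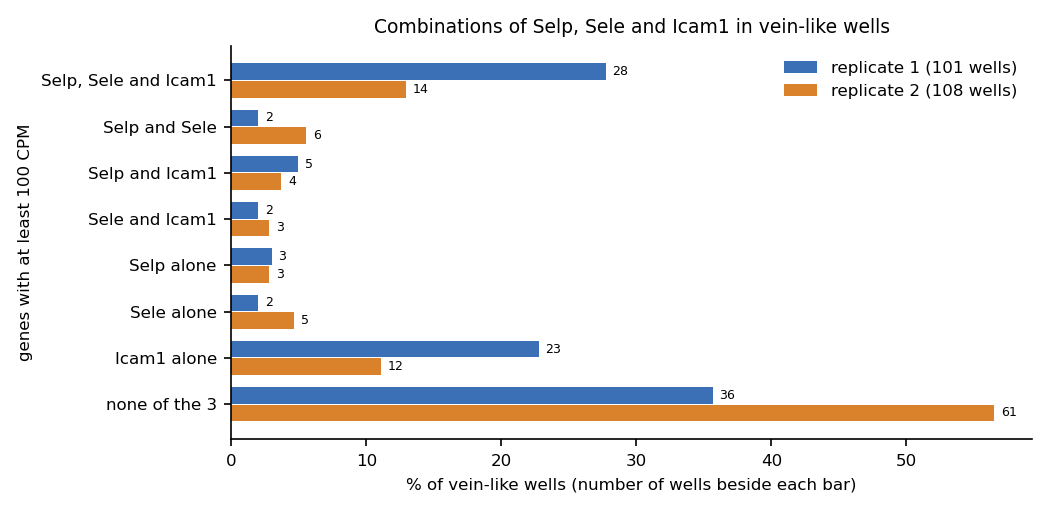
Percent of vein-like wells with each combination of *Selp*, *Sele* and *Icam1* at or above 100 CPM, with a bar per replicate and the number of wells beside it. The commonest combinations after none are all 3 genes (28 and 14 wells) and *Icam1* alone (23 and 12 wells).

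Vein-like wells with and without *Selp* differed in other vein genes. The 38 and 27 vein-like wells with at least 100 CPM of *Selp* had mean levels of 1151 and 958 CPM of *Ackr1*, a chemokine-binding receptor of venules, against 65.6 and 21.7 CPM in the 63 and 81 other vein-like wells. *Lrg1* was at 2021 and 1984 against 517 and 374 CPM, and *Nr2f2*, the vein identity factor, at 125 and 97.1 against 24.8 and 24.8 CPM. *Pecam1*, a pan-endothelial gene, was at 3325 and 2640 against 3548 and 2973 CPM. Median counts were 211918 and 219060 in the wells with *Selp* and 186113 and 170443 in the others. Wells split by *Icam1* differed less in *Ackr1*, with 717 and 376 against 147 and 203 CPM. These splits use the receptors themselves and are given without a test.

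Genes with the most similar pattern over BEC wells were ranked by the lower of the replicates' Spearman rho, among protein-coding genes with a read in at least 10% of wells of each replicate (6885 genes). For *Selp* they were *Sele* (0.53), *Ackr1* (0.32), *Icam1* (0.31), *Lrg1* (0.28) and *Cadm3* (0.27), and for *Sele* they were *Selp* (0.53), *Lrg1* (0.27), *Ret* (0.27), *Icam1* (0.27) and *Ackr1* (0.26). For *Icam1* they were *Ret* (0.31), *Selp* (0.31), *Ier3* (0.28), *Sele* (0.27) and *Socs3* (0.26). Each selectin was the gene most like the other. For *Vcam1* the highest were *Tmem263* (0.16), *Topbp1* (0.15), *Eif4g1* (0.15), *Gmip* (0.15) and *Slc25a43* (0.14), which in such sparse counts is no finding, and *Selp*, *Sele* and *Icam1* ranked 1327, 1065 and 1790.

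Lists are given beside all 15725 genes tested, of which 31.5% were higher and 23.2% lower in vein-like wells in both replicates, and 2.95% higher and 1.16% lower at an unadjusted p under 0.05. *Ier3* and *Socs3* belong to a list of 37 tested genes that tissue dissociation induces. Of these, 24 (64.9%) were higher and 5 (13.5%) lower in vein-like wells in both replicates, with a median difference of 0.28 beside 0.13 for all genes, and in artery-like against capillary-like wells 25 (67.6%) were higher and 0 lower, beside 29.5% and 19.4% of all genes, with a median of 0.65 beside 0.20. edgeR called 0 of them, with 7 (18.9%) and 9 (24.3%) higher at an unadjusted p under 0.05, beside 2.95% and 2.12% of all genes. The part of tissue dissociation in the *Icam1* level was not tested.

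Genes that work with the receptors were taken from lists. Of 19 tested NF-kB target genes other than the receptors, 13 (68.4%) were higher and 0 lower in vein-like wells in both replicates, beside 31.5% and 23.2% of all genes, with a median of 1.252 beside 0.13 for all genes, and edgeR called 0 (3 at an unadjusted p under 0.05) and DESeq2 1. In artery-like against capillary-like wells, 11 (57.9%) of these genes were higher and 1 lower in both replicates, with a median of 1.46 beside 0.20. In the vein-like comparison, DESeq2 called no gene of the other lists and limma called 0 genes in all. By level the first 3 were *Nfkbia*, the NF-kB inhibitor (vein-like difference 0.54 ± 0.23), *Irf1* (0.38 ± 0.24) and *Nfkbiz* (1.252 ± 0.34), with edgeR adjusted p = 0.999 for each. *Lbp*, a lipopolysaccharide-binding protein, and *Il6* were picked out after their values were seen. *Lbp* had vein-like sums of 271 and 172 CPM against 3.77 to 9.43 CPM in the other 4, a difference of 5.34 ± 0.61 (edgeR adjusted p = 0.4165, DESeq2 adjusted p = 2.9e-10), close in size to that of the selectins, and *Il6* had 201 and 389 CPM against 6.01 to 132 CPM, a difference of 2.63 ± 0.57 (edgeR adjusted p = 0.999).

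Upstream of NF-kB, 14 of 24 cytokine receptor and NF-kB component genes (58.3%) were higher and 1 (4.17%) lower in vein-like wells in both replicates, beside 31.5% and 23.2% of all genes (median 0.60). edgeR called 0, with 2 at an unadjusted p under 0.05. The TNF receptor *Tnfrsf1a* differed by 0.30 ± 0.30, *Ifngr1* by 0.24 ± 0.41 and *Rela*, an NF-kB subunit, by 0.81 ± 0.36 (edgeR adjusted p = 0.999 for each). The interleukin 1 receptor *Il1r1*, picked out after its values were seen, had vein-like sums of 82.8 and 49.0 CPM against 9.95 to 27.0 CPM in the others (1.91 ± 0.72, edgeR adjusted p = 0.999).

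Genes of the Weibel-Palade bodies, the granules that store P-selectin, had shares near those of all genes in the vein-like comparison. Of 17, 4 (23.5%) were higher and 4 (23.5%) lower in vein-like wells in both replicates, beside 31.5% and 23.2% of all genes (median 0.48), edgeR called 0 and 1 had an unadjusted p under 0.05. In artery-like against capillary-like wells, 9 (52.9%) were higher and 3 (17.6%) lower, beside 29.5% and 19.4% of all genes (median 1.04), edgeR called 0 (2 at an unadjusted p under 0.05) and DESeq2 called *Myrip*, which links the granules to the cytoskeleton and is named after its value was seen (adjusted p = 0.0293). *Vamp3*, a membrane fusion protein, differed by -0.41 ± 0.33, the peptide gene *Edn1* by -0.55 ± 0.57 and *Angpt2* by 0.53 ± 0.38 (edgeR adjusted p = 0.999 for each). Of 12 other vessel-wall adhesion receptors, 4 (33.3%) were higher and 3 (25%) lower in both replicates (median 0.10), and edgeR called 0, also at an unadjusted p under 0.05. *Pecam1* differed by 0.18 ± 0.17, *Esam* by -0.05 ± 0.24 and *Cd34* by 0.07 ± 0.26 (edgeR adjusted p = 0.999 for each).

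Receptor docking genes, whose products link the receptors to the membrane and the cytoskeleton, included 3 (20%) higher and 7 (46.7%) lower in vein-like wells in both replicates among 15, beside 31.5% and 23.2% of all genes (median -0.04). edgeR called 0, with 2 lower at an unadjusted p under 0.05. The caveolar gene *Cav1* differed by -0.57 ± 0.19, the tetraspanin *Cd81* by -0.39 ± 0.22 and moesin (*Msn*) by -0.04 ± 0.22 (edgeR adjusted p = 0.999 for each). Of 10 transcription regulators, 4 (40%) were higher and 2 (20%) lower in both replicates (median 0.15), and edgeR called 0, with 2 at an unadjusted p under 0.05. *Nr4a1* differed by 0.70 ± 0.25, *Jun* by 0.13 ± 0.26 and *Atf3* by 1.11 ± 0.33 (edgeR adjusted p = 0.999 for each). Of 9 genes for leukocyte ligands and integrins, 2 had enough counts to be tested and edgeR called 0 of them. *Itgal*, the LFA-1 subunit that binds Icam1, had mean levels of 0.0096 and 8.50 CPM over BEC wells of replicates 1 and 2. *Itga4*, the VLA-4 subunit that binds Vcam1, had 1.90 and 4.62 CPM, and *Itgam* 0.661 and 3.33 CPM. The BEC wells of replicate 2 include unnamed wells whose leukocyte markers summed to 684 CPM.

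Markers of other cells were checked beside these results. Of 8 leukocyte markers, 5 to 6 were above 0 in vein-like wells with a summed level of 14.9 and 4.30 CPM, against 1.88 to 16.4 CPM in the other 2 classes, and *Tyrobp* and *Cd52* were at 0 in vein-like wells of both replicates. Of 7 platelet markers, given because platelets hold P-selectin too, 2 were above 0 in vein-like wells with 9.53 and 5.80 CPM, against 0.183 to 6.28 CPM, and *Ppbp*, *Gp9*, *Gp1bb*, *Gp6* and *Treml1* were at 0. Without wells that had 100 CPM or more of platelet or leukocyte genes, *Selp* differed by 5.18 (edgeR adjusted p = 0.996) and *Sele* by 5.80 (edgeR adjusted p = 0.292). The 10 mural markers summed to 969 and 422 CPM in vein-like wells and to 275 to 1587 CPM in the other classes, and the 7 lymphatic markers to 32.8 and 112 CPM against 41.3 to 352 CPM. The 4 Schwann markers summed to 63.9 and 0.177 CPM in vein-like wells, 3.41 and 33 CPM in artery-like and 5.02 and 0.544 CPM in capillary-like wells, and the 5 keratinocyte markers to 32.1 and 1.83 CPM in vein-like wells against 0 to 70.7 CPM. The 6 fibroblast markers summed to 279 and 54.2 CPM in vein-like wells and 514 and 975 CPM in capillary-like wells. The part of these cells in the levels was not tested.

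Wells set aside as other cells had reads of *Selp*, *Sele* and *Icam1*, and few or none of *Vcam1*. In 15 and 128 lymphatic wells (at least 300 CPM of *Prox1* or *Lyve1*), mean levels were 5.33 and 55.6 CPM of *Selp*, 9.79 and 50.3 CPM of *Sele*, 56.4 and 66.2 CPM of *Icam1* and 0 and 0.785 CPM of *Vcam1*. In 354 and 31 wells with at least 300 CPM of *Pdgfrb* or *Kcnj8* and at least 100 CPM of *Pecam1*, *Selp* was at 107 and 161 CPM, *Sele* at 147 and 190 CPM, *Icam1* at 282 and 121 CPM and *Vcam1* at 3.6 and 9.48 CPM. The latter wells of replicate 2 had a median of 5346 counts, at which a single read passes 100 CPM, so their shares are not given. The choice of limit for the non-BEC genes mattered most in replicate 1, where 10 CPM would have kept 18 wells and 300 CPM 389 wells. The unnamed wells, although they passed the BEC filter, had 9 of 10 mural and 7 of 7 lymphatic markers higher than in other wells, and in replicate 2 their lymphatic, leukocyte, platelet and fibroblast markers summed to 3189, 684, 300 and 1921 CPM. In them, *Selp* was at 104 and 61.0 CPM, *Sele* at 51.2 and 34.8 CPM, *Icam1* at 181 and 92.5 CPM and *Vcam1* at 1.34 and 3.2 CPM, below the vein-like levels for the first 3 genes in both replicates.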

How the data were processed

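Gene counts of 1536 wells, from 4 plates of ear dermal BECs, were used. The deposited tables give unnormalized read counts, which the authors made from single 50-bp Smart-seq2 reads aligned to mm10 with TopHat2 2.1.1, with duplicates removed by SAMtools 0.1.18 and reads counted by Subread 1.4.6-p5. Because duplicates were removed without molecular identifiers, high counts of short genes are limited. The annotation release is not given in the sources used here. Symbols, exon lengths and coordinates came from GENCODE vM21, which matched 46005 of 46517 identifiers, and 92 spike-ins stayed out of totals and tests.

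Wells with at least 600 counts, 500 to 8000 genes and the BEC filter were kept. No 2 wells held identical counts (0 pairs), and no doublet caller was run. scran 1.30.0 gave size factors, and leidenalg 0.10.2 clustered 15 principal components of 1000 variable genes, without the receptors, with classes named from at least 3 markers 1.25 times higher than in other wells. Counts were summed per replicate and class (6 sums). Genes with at least 10 counts in 2 sums were tested with edgeR 4.0.16 (quasi-likelihood, TMM, replicate as a block, Benjamini-Hochberg, threshold 0.05), and DESeq2 1.42.0 and limma 3.58.1 were alternatives. The median count per well was 182926 and 142086 on the plates of replicate 1 and 42539.5 and 40324 on those of replicate 2, so 1 read is worth more CPM in replicate 2. Deviations of sums with the same replicate number correlated at 0.167, 0.156 and 0.116 across genes, and sums with the same number come from the same plates. Shares carry exact 95% binomial intervals, rho used log2(CPM + 1), and R 4.3.3 and Python 3.11.15 were used. Scripts were checked on simulated data.

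The receptors, lists and rules were chosen with earlier results of these data known. Besides the receptors, the rule names the 5 genes most like each, and in each list genes past the threshold or, with none, the 3 of highest mean level. Alternatives were other size factors, tests, filters, non-BEC limits of 10 and 300 CPM, marker-score classes, thinned reads, single plates and replicates, no block, and, chosen after seeing the data, leaving out the highest well of each sum.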

Additional observations from a re-analysis of the deposited data

Results flagged for a closer look

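In artery-like wells, the plate means of *Sele* were 13.1 (A) and 10.5 CPM (B) for replicate 1 and 94.2 (A) and 20.3 CPM (B) for replicate 2, and plate A of replicate 2 stood far from the other 3. It holds the well with 2428 CPM of *Sele*. The same plate stood apart for *Vcam1* in artery-like wells, with 45.2 CPM against 1.22, 0.927 and 2.54 CPM, and it holds the well with 2298 CPM of *Vcam1*. These are 2 of 16 sets of 4 plates compared in this way, and chance alone gives about 1 in 20.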

How the results depend on the processing

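Numbers of genes called depended on the test and the wells. For vein-like against other wells, edgeR called 0 genes, DESeq2 192, edgeR without the low-count filter 6, with non-BEC limits of 10 and 300 CPM 8 and 1, with marker-score classes 2, with thinned wells 4 and on plate A 1. For artery-like against vein-like wells, DESeq2 called 142, the 10 CPM limit 3 and thinned wells 1, and for artery-like against capillary-like wells DESeq2 called 233 and the 10 CPM limit 1. The same settings brought *Selp* and *Sele* past the threshold in vein-like wells, with 5.19 and 5.78 in DESeq2, 5.24 and 5.85 without the filter, 6.11 and 6.62 at 10 CPM, 7.21 and 7.54 with marker scores and 4.92 and 5.51 in thinned wells, and *Sele* also at 300 CPM (6.42) and on plate A (5.53). At 10 CPM, replicate 1 gave sums of 2, 3 and 12 wells, and the median of all genes was 1.08.

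Without the replicate block, edgeR called 0 genes in each comparison, and vein-like differences were 4.90 for *Selp*, 5.80 for *Sele*, 2.67 for *Icam1* and 2.48 for *Vcam1*. The block changed no call of a receptor. Leaving out 1 replicate gave 4.54 to 6.45 for *Selp*, 5.87 to 5.96 for *Sele*, 2.90 to 3.29 for *Icam1* and -1.86 to 4.62 for *Vcam1*, with no test left.

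*Vcam1* turned direction in vein-like wells at 10 CPM (-0.74). Its artery-like minus vein-like difference, near 0, was -0.097 with DESeq2 size factors, -0.089 in DESeq2, -0.75 without the block, -0.062 in limma, -4.48 at 300 CPM, -3.21 with reads of all 3 BEC genes, -0.0034 without wells holding blood cell genes, -0.50 with marker scores, -3.18 on plate B, -1.75 without the highest well of each sum and -4.85 to 3.99 without a replicate. Artery-like minus capillary-like differences turned with marker scores for *Selp* (-0.48), *Sele* (-0.13) and *Icam1* (-0.45), at 300 CPM for *Vcam1* (-4.22), and without a replicate for *Icam1* (-0.20 to 4.40) and *Vcam1* (-0.47 to 4.25). The causes were not tested.

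Mean levels moved beyond the spread in the CPM of summed counts (401 for *Selp*, 373 for *Sele*, 489 for *Icam1*, 11.8 for *Vcam1*) and at 10 CPM (466, 513, 434 and 5.93). *Icam1* was 421 and 276 CPM on plates A and B. *Vcam1* was 13.5 and 4.94 CPM there, 9.32 with scran factors, 9.30 at 300 CPM, 5.39 with reads of all 3 BEC genes and 10.3 in thinned wells. With 2 replicates and 2 residual degrees of freedom, only large differences can be called, and the *Vcam1* values rest on few wells.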
